A study of Mus musculus with 18 samples.

Results

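Hippocampus and cortex of mice kept under continuous hypoxia were compared on 6 of the 18 arrays of a bead array study of the developing mouse brain. The members were chosen by label: the 3 arrays titled CCH-Hippocampus and the 3 titled CCH-Cortex. CCH is chronic consistent hypoxia, which the labels say began at postnatal day 2 and ran for 2 weeks. The samples came from CD-1 mice, an outbred strain, aged 16 days and labelled male, and total RNA was taken from frozen tissue. Control hippocampus and control cortex of the same strain and age, 3 arrays each and with no hypoxia named, gave the reference for which regional differences persist. The other 6 arrays came from chronic intermittent hypoxia (CIH) and entered the shared estimate of spread. The study's design text also calls the CIH mice CCH treated, and the sample titles were followed. The CCH arrays carry the same name in both. The sources used here give neither the oxygen level nor how many animals a sample holds. The p-values therefore measure only how samples of a group scatter, and some of that scatter may be technical.

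The hippocampus is a folded sheet of cortex made of the dentate gyrus, whose granule cells send mossy fibres to CA3, and of CA3, CA2 and CA1, whose pyramidal cells pass signals on. The neighbouring neocortex has layers instead of fields, and its upper and deep layers hold different projection neurons. Each field and layer is set up by transcription factors and keeps its own adhesion molecules, receptors and channels. Under low oxygen, hypoxia-inducible factors are stabilised and raise genes of glycolysis, vessel growth and iron handling, and the maturing brain is still laying down myelin at this age.

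Under CCH, genes were called in both directions between the 2 regions. Prox1, the homeobox factor of dentate granule cells, was 3.33-fold higher in hippocampus, and Fibcd1, a receptor known as a marker of CA1 pyramidal cells, was 9.29-fold higher. Mef2c, a transcription factor of neocortical projection neurons, was 5.50-fold higher in cortex. A difference was called at an adjusted p under 0.05 in limma, with Benjamini-Hochberg adjustment over 14664 probes detected on at least 3 arrays. Of these, 2091 were called between the 2 regions under CCH, or 14.3%, with 1002 higher in hippocampus (6.83%) and 1089 higher in cortex (7.43%). With arrays scaled to a common median in place of quantile normalization, 445 were called higher in hippocampus and 1915 higher in cortex, and the median probe lay at −0.06. In 4570 probes, 31.2%, the 3 arrays of one region all lay above the 3 of the other, and 2064 of the 2091 called probes were among them. Without CCH hippocampus 2 the number called dropped to 1391, of which 1344 were among the 2091. The 2091 all kept their direction, which was fixed in advance for the 2064 that did not overlap. The call count was 1201 when the 6 CCH arrays were fitted alone.

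A few facts of the libraries bear on these values. On the 6 CCH arrays the median raw intensity was 76.2 to 95.7. Detected probes numbered 13012 to 13505 on the CCH cortex arrays and 12294 to 12871 on the CCH hippocampus arrays, without overlap. Principal component 1 carried 41.5% of the variance and put the CCH hippocampus arrays at 15.3 to 17.2 and the CCH cortex arrays at −18.3 to −16.2. CCH cortex 1 stood apart from the other 5 on the second component, at 20.8 against −4.43 to 7.86. Xist, the non-coding RNA of X inactivation, lay at 10.05 and 10.18 log2 units on CCH cortex 2 and 3 and at 9.68 on CCH hippocampus 3, but at 6.55 to 6.56 on the other 3. These 3 arrays with high Xist are labelled male, and the Y-linked Kdm5d was not detected on them. On the control arrays Xist was low throughout, at 6.53 to 6.57. High Xist is thus uneven between CCH and control as well, which bears on the comparison of the 2 conditions. With a term for high or low Xist in the model, 2241 probes were called under CCH, 1832 in control, 1260 in both and 0 for the change between conditions. Xist is high on CCH cortex 2 and low on CCH hippocampus 2, so the shared number does not mark 1 animal.

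Every gene level below is a normalized log2 intensity, and a difference is hippocampus minus cortex on that scale, with its standard error (SE) from limma and n = 3 arrays per region. A level says nothing about the level of another gene, since probes differ in how strongly they bind. The named genes are the 15 with the largest difference in each direction among called probes that did not overlap between regions. They were chosen by these values, so their size is a description. Gene names reached 647 of the 2091 called probes, for 622 genes, and several of the largest differences belong to probes with no name here.

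Genes of the hippocampal fields led those higher in hippocampus. Fibcd1 was at 11.42, 10.99 and 11.78 on the 3 CCH hippocampus arrays and at 7.80, 8.38 and 8.36 on the CCH cortex arrays. The difference was 3.22 ± 0.25 (SE; adjusted p = 9.8e-07), and the lowest hippocampus array lay far above the highest cortex array. C1ql2, a secreted synaptic protein of dentate granule cells, was at 10.76, 10.88 and 10.90 in hippocampus against 7.88, 8.68 and 8.59 in cortex, a difference of 2.46 ± 0.16 (adjusted p = 1.5e-07). Prox1 was at 8.48, 8.80 and 8.35 against 6.81, 6.84 and 6.77 (1.74 ± 0.12, adjusted p = 1.7e-07). In both genes the 3 hippocampus arrays stood clear of the 3 cortex arrays. Bok, a member of the Bcl-2 family that marks CA3, was at 11.56, 11.43 and 11.72 against 9.76, 9.95 and 10.07 (1.64 ± 0.10). Zbtb20, a zinc finger repressor needed for hippocampal pyramidal identity, was at 9.27, 9.61 and 9.68 against 7.47, 8.06 and 7.58 (1.82 ± 0.18, adjusted p = 9.6e-06). Hopx, a homeodomain protein of dentate stem cells and astrocytes, differed by 1.60 ± 0.14.

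Several others encode secreted or matrix proteins. Serpina3n, a secreted protease inhibitor, was at 11.10, 11.39 and 11.15 in hippocampus and at 8.69, 8.88 and 8.90 in cortex (2.39 ± 0.15). Olfml2b, an olfactomedin domain protein of the extracellular space, had a small spread: 9.14, 9.42 and 9.33 against 6.87, 6.99 and 7.01 (2.34 ± 0.06, adjusted p = 3.4e-11). Tgfb2, a growth factor of the transforming growth factor beta family, was at 9.71, 9.68 and 9.63 against 7.79, 7.32 and 7.49 (2.14 ± 0.13). None of these groups overlapped. The adhesion molecule Pcdh20 (2.20), the lipoprotein lipase Lpl (2.05), the Golgi membrane protein Golm1 (1.91), the small proteoglycan Dcn (1.70) and the sulfotransferase Chst8 (1.58) were higher in hippocampus by these log2 differences. For Dcn the second detected probe gave 1.19. Dgkg, a diacylglycerol kinase, differed by 1.62 ± 0.15 on the named probe and by 0.13 on the second detected probe (adjusted p = 0.035).

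**Figure D1:**
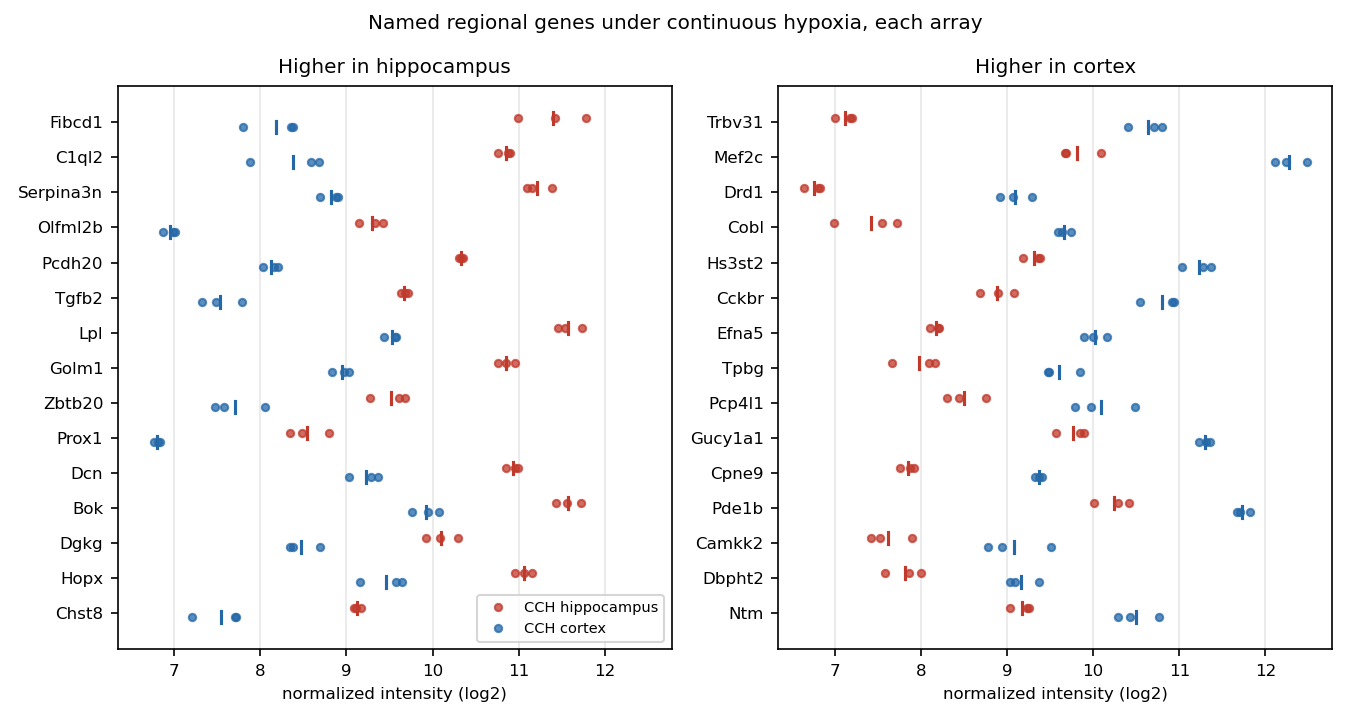
Normalized log2 intensity of the 30 named genes on each of the 3 CCH hippocampus (red) and 3 CCH cortex (blue) arrays, with vertical bars at the group means. In every row the points of the 2 regions do not overlap, which the choice of genes required, and the gap is widest for Fibcd1 and Trbv31.

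Genes higher in cortex included a transcription factor, receptors and enzymes of second messenger signalling. The largest difference of a named gene was −3.51 ± 0.13 for Trbv31, at 7.0, 7.18 and 7.20 in hippocampus and at 10.41, 10.71 and 10.80 in cortex (adjusted p = 4.4e-10). Trbv31 is the present name of the gene ID on the probe, a variable segment of the T-cell receptor beta locus, and its level was detected on all 6 CCH arrays. Mef2c was at 10.09, 9.67 and 9.69 in hippocampus and at 12.24, 12.11 and 12.48 in cortex (−2.46 ± 0.17, adjusted p = 2.7e-07). The cholecystokinin receptor Cckbr was at 9.08, 8.90 and 8.69 against 10.54, 10.92 and 10.94 (−1.91 ± 0.16). In each of these the highest hippocampus array lay at least 1 log2 unit under the lowest cortex array. Drd1, the D1 dopamine receptor, was at 6.83, 6.81 and 6.64, detected on 2 of the 3 hippocampus arrays, against 9.29, 9.07 and 8.92 in cortex (−2.34 ± 0.08, adjusted p = 1.9e-10).

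Cobl, which starts actin filaments and shapes dendrites, differed by −2.24 ± 0.15 between regions. Hs3st2, an enzyme that sulfates heparan sulfate, differed by −1.91 ± 0.12, and Efna5, an axon guidance ligand, by −1.85 ± 0.17. Signalling enzymes followed: the guanylate cyclase subunit Gucy1a1 (−1.53), the calmodulin-dependent phosphodiesterase Pde1b (−1.49) and the calcium/calmodulin kinase kinase Camkk2 (−1.46). The second detected probe of Gucy1a1 gave −0.32. The membrane glycoprotein Tpbg (−1.63), Pcp4l1 (−1.59), the copine Cpne9 (−1.52), Dbpht2 (−1.35) and the cell adhesion molecule Ntm (−1.32) completed the set. All 30 named genes stayed called without any 1 of the 6 CCH arrays, with a largest adjusted p of 0.0039.

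The sequences just upstream of 2 named genes are shown for the core letters of the element that hypoxia-inducible factors bind, one gene from each direction. The motif is ACGTG on either strand, so that CACGTG counts on both strands at once, and it was searched in the 250 bases before each RefSeq start of GRCm38.p6. It was found for 3 of the 13 hippocampus-higher genes with a promoter in the table (Tgfb2, Dgkg and Hopx), 23.1%, and for 2 of 14 cortex-higher genes (Cckbr and Tpbg), 14.3%. Over all 27025 genes of the table the share was 18.5%. Capitals mark the motif letters. The Tgfb2 stretch is chr1:186705990-186706239 on the minus strand and the Cckbr stretch is chr7:105425481-105425730 on the plus strand, each the largest difference of its direction among the genes with a match.
Tgfb2: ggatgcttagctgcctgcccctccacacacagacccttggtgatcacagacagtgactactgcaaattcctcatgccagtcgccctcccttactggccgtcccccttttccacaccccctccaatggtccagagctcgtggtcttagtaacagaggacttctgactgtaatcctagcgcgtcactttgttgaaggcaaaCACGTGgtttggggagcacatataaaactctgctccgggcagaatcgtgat
Cckbr: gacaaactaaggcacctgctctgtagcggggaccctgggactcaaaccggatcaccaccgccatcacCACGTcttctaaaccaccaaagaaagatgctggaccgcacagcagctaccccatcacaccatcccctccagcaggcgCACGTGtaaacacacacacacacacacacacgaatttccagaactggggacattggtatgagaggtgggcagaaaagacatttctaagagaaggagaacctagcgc
The Cckbr stretch holds CACGTG and a further CACGT, and the Tgfb2 stretch holds CACGTG. A match describes letters in this window and is not a site of binding.

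The question of which regional differences persist was put to the control arrays, which share no array with the CCH comparison. Between control hippocampus and control cortex 1711 probes were called, 11.7% of those tested. Of these, 1217 were also called under CCH in the same direction, 71.1% of the control calls and 58.2% of the CCH calls, and 0 were called in opposite directions. The 494 control calls that missed the threshold under CCH still lay in the same direction in 471 cases. Of the 874 CCH calls that missed it in control, 811 lay in the same direction there. Among the 208 control calls of at least 1 log2 unit, all 208 kept their direction under CCH and 203 were called. Across all 14664 probes the CCH and control differences had a Pearson correlation of 0.83 and a Spearman correlation of 0.62, a description over probes that are not independent and that share slides.

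**Figure D2:**
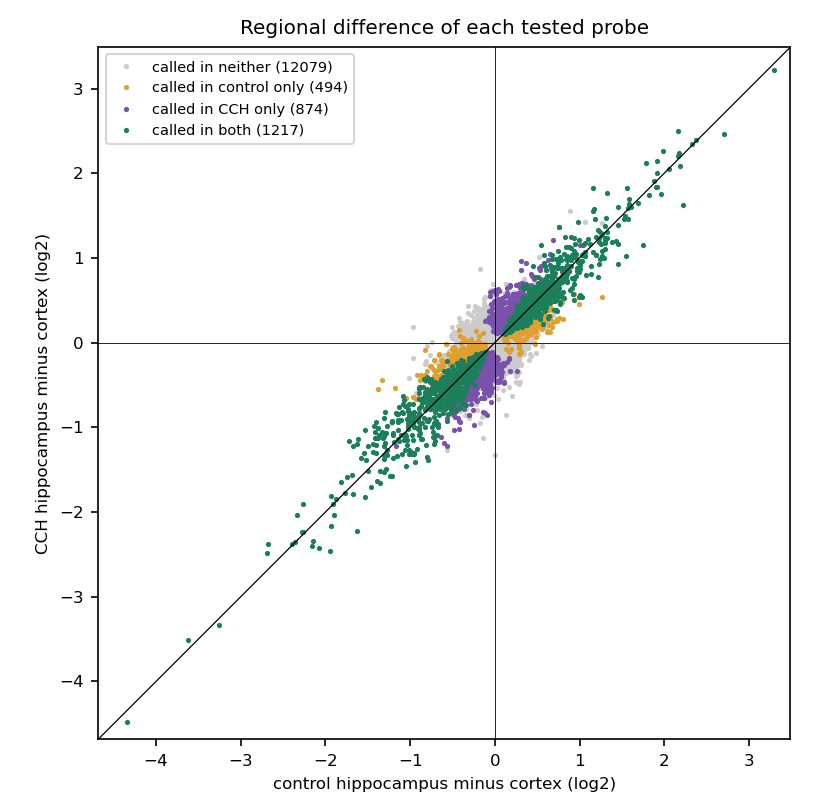
Each point is 1 of the 14664 tested probes, with the control difference (hippocampus minus cortex, log2) on the horizontal axis and the CCH difference on the vertical axis. The 1217 probes called in both lie along the diagonal, and those called in CCH (874) or control (494) alone lie mostly, but not all, closer to the origin.

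The change of a regional difference was tested itself, as CCH minus control of hippocampus minus cortex. No probe passed in limma, 0% of 14664, with a smallest adjusted p of 0.95, and 670 probes (4.57%) had an unadjusted p under 0.05. The 95% interval of this change had a median half-width of 0.27 log2 units, and 90% of probes had one up to 0.53. Its size was below 0.5 in 98.7% of probes. These intervals are not adjusted over probes, so changes larger than the half-width could also miss the threshold, and a miss does not show that 2 differences are alike.

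The 30 named genes were all called in control too, and in the same direction. Olfml2b differed by 2.34 under CCH and 2.33 in control, with a change of 0.01 (95% interval −0.19 to 0.20). Golm1 differed by 1.91 and 1.88, with a change of 0.03 (−0.20 to 0.27). For these 2 genes the interval lies within 0.27 of 0. The interval was wider for Fibcd1, whose differences were 3.22 and 3.29 (change −0.07, −0.84 to 0.70).

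Over the 30 genes the change ranged from −0.60 to 0.65, with a median size of 0.16. The 3 with an unadjusted p under 0.05 were Zbtb20, Dgkg and Mef2c, each with an adjusted p of 1. Zbtb20 differed by 1.82 under CCH and by 1.16 in control (change 0.65, 0.10 to 1.20). Mef2c differed by −2.46 under CCH and by −1.94 in control. Dgkg went the other way, with 1.62 under CCH and 2.22 in control (change −0.60, −1.05 to −0.14), while its second detected probe gave 0.13 and 0.10. Since the genes were picked for a large difference under CCH, a larger value there than in control is partly set by the choice.

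**Figure D3:**
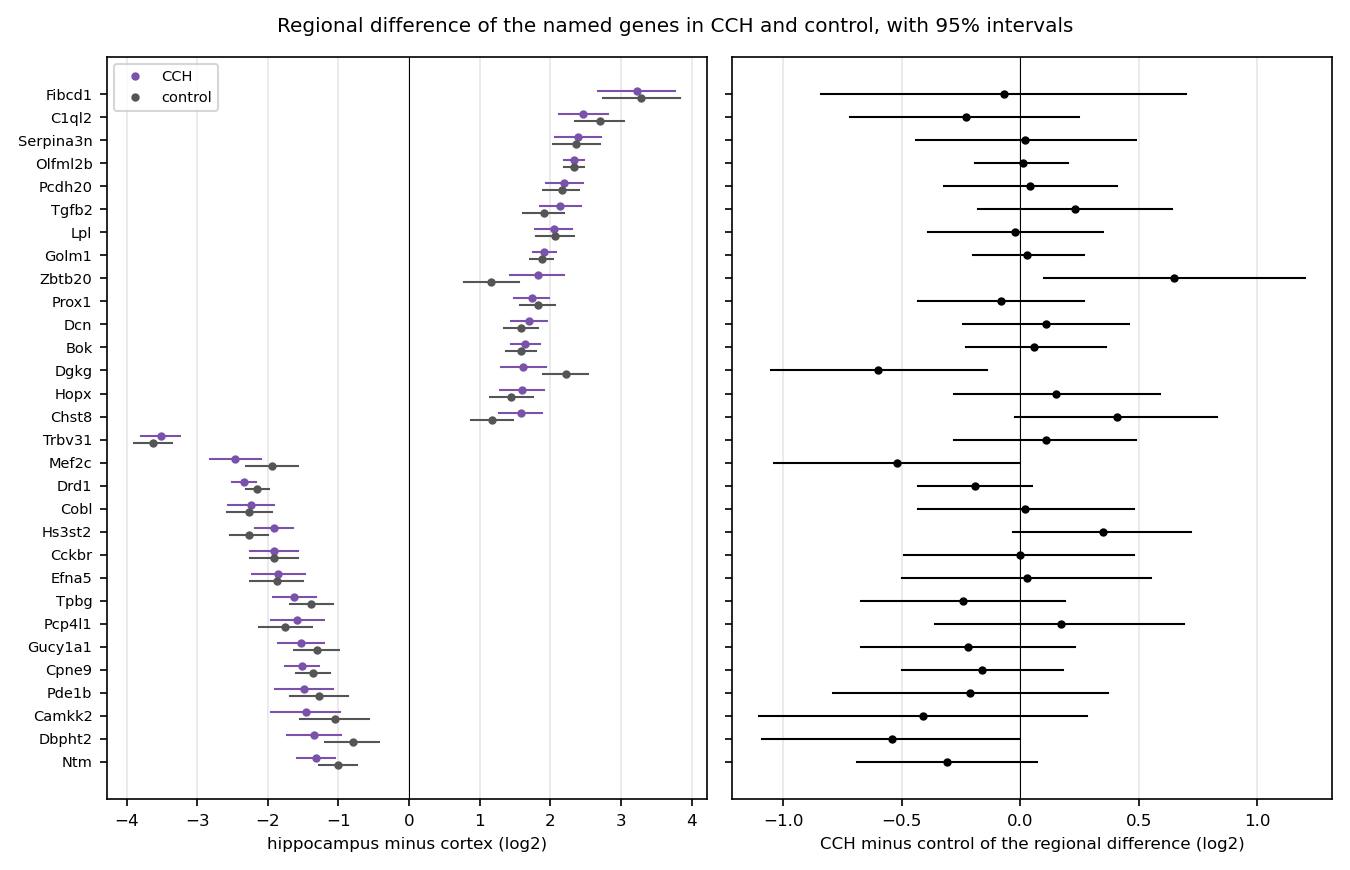
Left, the regional difference (hippocampus minus cortex, log2) of the 30 named genes under CCH (purple) and in control (grey), with 95% intervals from limma; right, CCH minus control of that difference. The intervals on the right include 0 for most genes, and those of Zbtb20, Dgkg and Mef2c do not.

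The named genes with the smallest unadjusted p for the change included Gstk1, Egr2, Armc8 and Slit2, each with an adjusted p of 1. Gstk1, a glutathione transferase of mitochondria and peroxisomes, was at 8.94, 8.97 and 8.88 in CCH hippocampus and at 8.13, 8.51 and 8.48 in CCH cortex, while the control arrays ran from 8.73 to 9.01 in both regions. Its difference was 0.55 under CCH and −0.06 in control. Egr2, an immediate early transcription factor, was detected on 0 of 3 CCH hippocampus arrays and 1 of 3 control hippocampus arrays. Its fitted differences of −0.44 under CCH (adjusted p = 0.073), at least 1.29-fold, and −1.33 in control, and the change between them, are therefore not exact. In control cortex Egr2 was at 8.46, 7.79 and 8.0, against 7.23, 7.05 and 7.07 in CCH cortex. Slit2, an axon repellent, differed by 0.33 under CCH and −0.28 in control. The ubiquitin ligase subunit Armc8 differed by −0.14 under CCH and 0.28 in control.

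Gene lists were read as counts and medians. The 35 lists with a measured gene held 345 different genes, of which 113 (32.8%) were called under CCH, 46 higher in hippocampus and 67 higher in cortex. Over all 4158 named genes 14.4% were called, 7.62% higher in hippocampus and 6.76% higher in cortex, with a median of 0.01. In control 98 of the 345 were called, and 78 were called in both conditions in the same direction and 0 in opposite ones. The lists hold genes known for regional expression, so a share above that of all genes is partly a matter of their choice.

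All 7 measured genes of the upper cortical layers were higher in cortex under CCH, and all 7 also in control. Their median was −0.72 under CCH and −0.45 in control. Cux2, a homeobox factor of the upper layers, was at 7.13, 7.14 and 7.06 in CCH hippocampus and at 8.66, 8.21 and 8.34 in CCH cortex (−1.29 ± 0.16). Stard8, a protein with a lipid-binding START domain, was at 7.22, 7.21 and 7.40 against 8.54, 8.53 and 8.39 (−1.21 ± 0.09). Neither gene overlapped between regions. Ptn, a heparin-binding growth factor, was at 11.71, 11.41 and 11.63 against 12.32, 12.19 and 12.40 (−0.72 ± 0.08), beside −0.37 in control (change −0.35, −0.59 to −0.12, unadjusted p = 0.0055 and adjusted p = 1 in limma). Mdga1, Unc5d and Calb1 of this list were not detected.

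Genes of the deep layers did not lie on one side. Of 15 measured, 4 were higher in cortex and 3 in hippocampus, with a median of 0.02. Cdh13, an atypical cadherin, differed by −1.14 ± 0.17, and the forkhead factor Foxp1 by −0.94 ± 0.16. The insulin-like growth factor binding protein Igfbp4 was higher in hippocampus, at 9.63, 9.86 and 9.74 against 8.23, 8.94 and 9.01. Among 9 genes known from cortex as a whole, 6 were higher in cortex, such as the kinase inhibitor Camk2n1 (−1.06) and the G protein regulator Rgs4 (−0.97). One of those 9, Pcdh20, was higher in hippocampus by 2.20, against the name of its list. In the Cajal-Retzius list 2 of 3 measured genes were higher in cortex, Reln and Cacna2d2. Reln, the secreted guide of cortical layering, differed by −0.64 ± 0.11 (control −0.43). The remaining gene, Calb2, lay the other way (0.46), not called under CCH but called higher in hippocampus in control. Trp73, Lhx1, Lhx5, Ebf3 and Nhlh2 of this list were not detected.

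Hippocampal lists leaned the other way. Of 7 genes known across hippocampal fields, 5 were higher in hippocampus and 0 in cortex, with a median of 0.50 under CCH and 0.57 in control. Among probes detected on all 18 arrays 3 of 5 were called higher in hippocampus, and with scaled arrays 4 of the 7. Epha4, an ephrin receptor, was at 8.77, 8.81 and 8.65 against 7.67, 7.56 and 7.86 (1.05 ± 0.21). Crhbp, which binds corticotropin-releasing hormone, differed by 0.50 ± 0.14 and kept its call only without CCH hippocampus 2 or without CCH cortex 3. Of 4 measured CA1 genes 2 were called, Fibcd1 and the calcium sensor Hpca, which was at 12.95, 12.88 and 13.10 against 11.77, 11.67 and 11.77 (1.24 ± 0.10). Of 7 dentate genes 3 were higher in hippocampus, C1ql2, Prox1 and the semaphorin Sema5a (1.01), and Marcksl1 was higher in cortex (−0.61), a call kept only without CCH hippocampus 1 or without CCH cortex 2. In control 5 dentate genes were called higher in hippocampus and 0 in cortex. The dentate median was 0.46 under CCH and 0.93 in control, and the change of the median was not tested. The CA3 and CA2 list split, with 3 genes higher in hippocampus, among them Bok and the adhesion molecule Amigo2 (1.07), and 3 higher in cortex, among them Cpne9 (−1.52) and the receptor kinase Tyro3 (−0.64), which missed the threshold without CCH hippocampus 1 or CCH hippocampus 2.

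**Figure D4:**
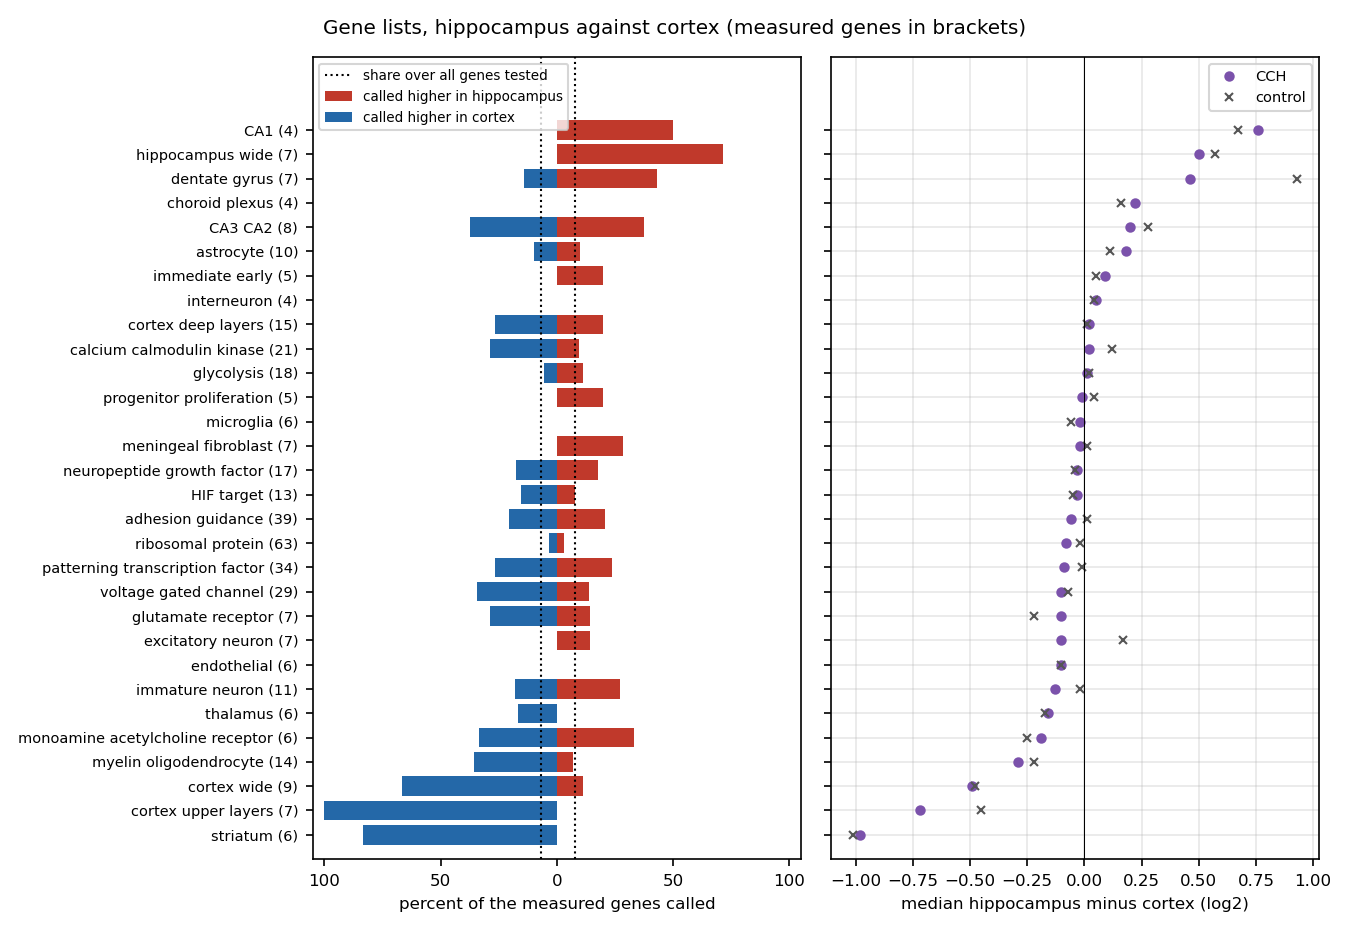
Left, the percent of measured genes in each list called higher in CCH hippocampus (red, to the right) or CCH cortex (blue, to the left), with dotted lines at the shares over all genes, 7.62% and 6.76%; right, the list medians of the regional difference under CCH (circles) and in control (crosses), in log2. Lists with at least 4 measured genes are shown, with that number in brackets; the upper layer and striatum lists lie lowest and the CA1 list highest.

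Adhesion and guidance genes were called in both directions, 8 higher in hippocampus and 8 in cortex of 39 measured, and 13 were called in control with the same sign. Nrp1, a semaphorin receptor, was at 11.01, 11.08 and 11.12 in CCH hippocampus and at 9.78, 9.48 and 9.55 in CCH cortex (1.46 ± 0.08, control 1.57). Patterning transcription factors split into 8 and 9 of 34, and 16 of these 17 were called in control too, with the same sign. With scaled arrays the split was 4 higher in hippocampus and 10 in cortex. Rora, a nuclear receptor, was at 8.08, 7.91 and 8.24 against 9.74, 8.87 and 9.53 (−1.30 ± 0.20). These 2 lists thus held regional genes of either direction that were called in both conditions.

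Ion channels and receptors followed. Of 29 voltage-gated channel genes 10 were higher in cortex and 4 in hippocampus, with a median of −0.10. Kcnt1, a sodium-activated potassium channel, was at 7.43, 7.55 and 7.34 against 8.29, 8.45 and 8.27 (−0.90 ± 0.13), and Scn1a, a sodium channel subunit, differed by −0.82 ± 0.11. Kcnn2, a calcium-activated potassium channel, was higher in hippocampus, at 8.95, 8.83 and 8.86 against 8.10, 7.81 and 8.05. Of 7 glutamate receptor genes 1 was higher in hippocampus and 2 in cortex, the auxiliary subunit Cacng3 (−0.78) and the metabotropic receptor Grm8 (−0.57). Gria1, an AMPA receptor subunit, was at 10.80, 10.79 and 11.02 in CCH hippocampus and at 10.22, 9.58 and 9.75 in CCH cortex. Its difference was 1.02 ± 0.15 under CCH and 1.55 in control (change −0.53, −0.98 to −0.08, adjusted p = 1), and CCH cortex 1, the array that stood apart, was the highest of the CCH cortex arrays. Of 17 genes in the neuropeptide and growth factor list 3 were higher in hippocampus and 3 in cortex, with a median of −0.03. The cortex calls numbered 0 to 3 without 1 CCH array at a time. Fgf10 was higher in hippocampus, at 8.16, 8.22 and 7.76 against 6.87, 6.81 and 6.84 in cortex (1.20 ± 0.12, control 1.3), and so was Fgf13 (0.79).

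Of the 20 list genes called in control but not under CCH, 19 kept their direction. The following 2 were chosen after their values were seen. Calb2, the calcium buffer calretinin, which marks mossy cells and a class of interneurons, differed by 0.99 in control and 0.46 under CCH (adjusted p = 0.054). Kcnd2, an A-type potassium channel, differed by 0.73 and 0.28 (adjusted p = 0.27). Neither change passed, each with an adjusted p of 1, so they are not shown to differ between conditions.

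Myelin and oligodendrocyte genes were lower in hippocampus for 5 of 14 measured under CCH and higher for 1. In control 2 were lower and 1 higher, and the medians were −0.29 and −0.22. Trf, the iron carrier transferrin made by oligodendrocytes, was at 7.77, 7.43 and 8.18 in CCH hippocampus and at 9.15, 8.86 and 8.96 in CCH cortex (−1.20 ± 0.20, adjusted p = 0.00094), against −0.72 in control. Mog, a protein of the outer myelin surface, was at 7.66, 7.35 and 7.89 against 8.79, 8.49 and 8.71 (−1.03 ± 0.23), against −0.48 in control. Fa2h, which makes hydroxylated myelin lipids, was at 8.61, 8.30 and 8.55 against 9.69, 9.38 and 9.21 (−0.94 ± 0.16), against −0.41 in control. In these 3 genes the regions did not overlap, and CCH hippocampus 2 was the lowest array. The changes from control were −0.48 (−1.09 to 0.12), −0.55 (−1.24 to 0.15) and −0.53 (−1.01 to −0.04), each with an adjusted p of 1.

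Cnp, a myelin phosphodiesterase, differed by −0.80 ± 0.25 (adjusted p = 0.045), a call lost with the slide in the model (adjusted p = 0.057) and without any of 5 of the 6 CCH arrays, CCH hippocampus 3 being the exception. Tspan2, a tetraspanin of myelin, differed by −0.50 ± 0.11 and missed the threshold without CCH hippocampus 2 (adjusted p = 0.052). Padi2, a peptidylarginine deiminase of oligodendrocytes, was higher in hippocampus, at 8.28, 8.15 and 8.20 against 7.50, 7.62 and 7.70 (0.61 ± 0.10, control 0.40). Leaving out 1 CCH array at a time gave 3 to 5 myelin genes lower in hippocampus, the 3 without CCH hippocampus 2. With scaled arrays 8 of the 14 were lower, and with the deposited series values 6 of 12, at a median of −0.58. In bulk tissue, fewer cells of a type and less RNA per cell cannot be told apart.

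**Figure D5:**
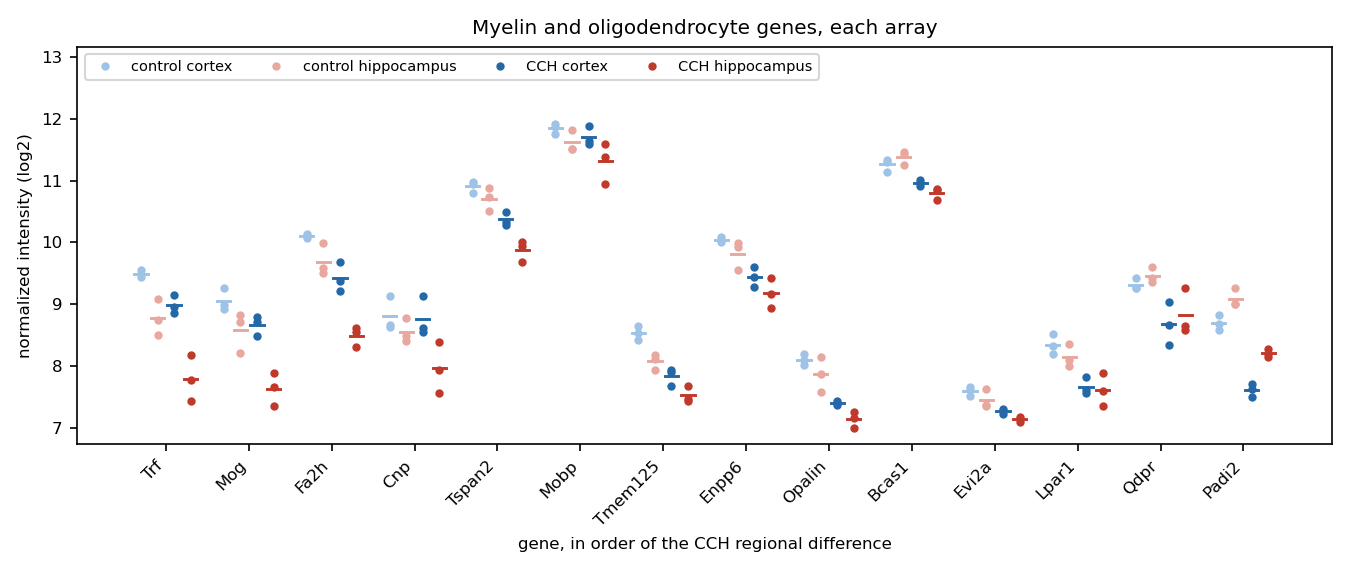
Normalized log2 intensity of the 14 measured myelin and oligodendrocyte genes on each array of control cortex, control hippocampus, CCH cortex and CCH hippocampus (3 each), with bars at the means, ordered by the CCH regional difference. CCH hippocampus lies below CCH cortex without overlap for Trf, Mog, Fa2h, Cnp and Tspan2 and above it for Padi2.

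Most genes of the hypoxia response were not called between regions, which is also true of all named genes (14.4% called). Of 13 HIF target genes 1 was higher in hippocampus (Pfkl) and 2 in cortex, with a median of −0.03. The 2 were Trf, at −1.20 as given with the myelin genes, and the prolyl hydroxylase Egln3 (−0.20). Egln3 missed the threshold without CCH hippocampus 1, CCH hippocampus 2, CCH cortex 2 or CCH cortex 3. With arrays scaled to a common median Pfkl was not called. As for glycolysis, of 18 genes 2 were higher in hippocampus and 1 in cortex, with a median of 0.01. Pfkfb3, which makes the activator of phosphofructokinase, was at 9.72, 9.73 and 9.79 in CCH hippocampus and at 8.83, 9.15 and 9.32 in CCH cortex (0.64 ± 0.11). Ldhb, a lactate dehydrogenase subunit, was at 11.64, 11.40 and 11.63 against 12.04, 11.91 and 12.10 (−0.46 ± 0.09). Both were separate between regions under CCH, and their control differences were 0.35 and −0.27, neither called. Pfkl, the liver type phosphofructokinase, differed by 0.37 ± 0.11 (adjusted p = 0.035), beside 0.73 in control, and missed the threshold without any of 5 of the 6 CCH arrays, CCH hippocampus 1 being the exception. Of 3 measured blood genes 1 was called, higher in cortex, and the beta globins Hbb-b1 and Hbb-b2 were not called. The called gene, the alpha globin Hba-a1, was at 13.68, 13.91 and 13.81 against 14.39, 14.29 and 14.22. Its difference of −0.50 was the same in control, and it missed the threshold without CCH hippocampus 1 or CCH cortex 1.

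Among immediate early genes, Fosl2, a partner of Jun in AP-1, was called under CCH and not in control. It was at 8.93, 8.90 and 8.57 in CCH hippocampus and at 7.90, 8.11 and 7.81 in CCH cortex (0.86 ± 0.12), against a control difference of 0.31. The control cortex arrays lay at 8.43 to 8.54, above all 3 CCH cortex arrays. The change was 0.55 (0.20 to 0.91, unadjusted p = 0.0051 and adjusted p = 1 in limma). Genes of young neurons went both ways, 3 of 11 higher in hippocampus and 2 in cortex. The cortex calls fell to 0 without CCH hippocampus 3 or CCH cortex 1, and to 1 without any other CCH array, and the 6 CCH arrays fitted alone gave 1 higher in hippocampus and 0 in cortex. Nnat, a small membrane protein of developing neurons, was at 8.17, 7.87 and 7.96 against 7.03, 7.11 and 7.24 (0.88 ± 0.10, control 0.82). The beta tubulin Tubb2b was at 9.13, 8.74 and 9.22 against 7.41, 8.26 and 8.31 (1.04 ± 0.26), and missed the threshold without CCH cortex 1, CCH hippocampus 1 or CCH hippocampus 3.

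Striatal markers, from tissue beside the 2 regions, mostly lay higher in cortex. Of 6 measured striatal genes 5 were higher in cortex, with a median of −0.98 under CCH and −1.01 in control. They were Drd1, Pde1b, the adenylyl cyclase Adcy5 (−1.10), Ido1 and Rgs2, and Ebf1 was not called (−0.13, adjusted p = 0.062). Ebf1 was called with the slide as a block (adjusted p = 0.045), and all 6 were also called with scaled arrays, without background correction and with array weights. A probe could enter through cortex arrays alone. Among probes detected on all 18 arrays only 2 striatal genes were left, and both were called higher in cortex. Ido1, an enzyme that breaks down tryptophan, was not detected on the 3 CCH hippocampus arrays and was at least 1.54-fold higher in cortex, where it was at 7.41, 7.38 and 7.32. Rgs2, a regulator of G protein signalling, was likewise not detected in CCH hippocampus and was at least 1.09-fold higher in cortex, a call kept only without CCH hippocampus 1 or without CCH cortex 3. The mean log2 level of the list was 8.87 to 8.95 on CCH cortex arrays and 7.84 to 7.93 on CCH hippocampus arrays, and in control 8.92 to 8.96 and 7.84 to 8.08. The defining striatal genes Adora2a, Gpr6, Rasd2 and Six3 were not detected. Drd1, Adcy5 and Pde1b are also made by cortical neurons, and the part of striatal tissue in these differences was not tested.

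Choroid plexus markers varied between hippocampus arrays rather than between regions. The chloride channel protein Clic6 was at 8.03, 6.62 and 9.89 in CCH hippocampus and at 7.64, 7.46 and 7.50 in CCH cortex (0.65 ± 0.73, adjusted p = 0.63). Enpp2, which makes lysophosphatidic acid, was at 8.24, 6.86 and 9.51 against 8.44, 7.26 and 8.10 (0.26 ± 0.74). For both genes CCH hippocampus 3 was high and CCH hippocampus 2 low. The mean level of the 4 measured choroid plexus genes was 6.65 to 8.31 on CCH hippocampus arrays and 6.99 to 7.33 on CCH cortex arrays, and the factor Otx2 was not detected. Of the meningeal list, Dcn and Cyp1b1 were called of 7 measured, the latter not detected in CCH cortex and at least 1.15-fold higher in hippocampus. Col1a1 differed by −0.02 and Col1a2, Col3a1 and Postn were not detected. The thalamic list had 1 call of 6, Rora, and a median of −0.16. The single measured ependymal gene, Mia, was at 7.65, 7.27 and 8.16 against 6.83, 6.83 and 6.74 (0.89 ± 0.15, control 0.69). The part of these tissues in the regional differences was not tested.

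Vessel and immune cell genes gave no call between regions: 0 of 6 endothelial genes (median −0.10), with 0 of 6 in control, and 0 of 6 microglial genes (median −0.02). Over all named genes 14.4% were called, and lists of 6 are too short to tell 0 from that share. With arrays scaled to a common median 3 of the 6 endothelial genes were called higher in cortex. Of 10 astrocyte genes 1 was called each way, the inhibitor of DNA binding Id3 (0.39) and the bicarbonate transporter Slc4a4 (−0.65, adjusted p = 0.041). The call of Slc4a4 was lost without any 1 array of CCH hippocampus 1, CCH hippocampus 2, CCH cortex 1 or CCH cortex 3. Of 4 interneuron genes 0 were called, and Lhx6, Nos1 and Crh were not detected. Of 63 ribosomal protein genes 2 were called in each direction, with a median of −0.08. The cortex calls numbered 7 with the slide as a block or with scaled arrays, 6 with the Xist term, and 0 to 5 without 1 CCH array at a time (5 without CCH hippocampus 1 or CCH cortex 2, 0 without CCH hippocampus 3 or CCH cortex 1, 1 without CCH hippocampus 2 or CCH cortex 3).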

How the data were processed

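Total RNA of 18 samples was labelled and hybridised to 18 Illumina Mouse-6 V1 bead arrays, per the labels' protocols. The authors deposited a mean bead intensity per probe, on a linear scale and not normalized per the file headers, with a detection score from 0 to 1. BeadStudio is given as version 2.0 in the submitters' processing notes and 1.5.1.3 in the file header. A deposited series table of the authors' processed intensity values served as an alternative. In the export 108 columns were not used.

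With limma 3.58.1 in R 4.3.3, neqc corrected the background (offset 16, detection p as 1 minus the score), quantile-normalized and took log2. Of 46120 probes, 14664 scored over 0.99 on 3 or more arrays and were kept. All 18 arrays entered 1 linear model of group means (lmFit, eBayes), and p-values were adjusted over all 14664 probes by Benjamini-Hochberg. Names came from gene IDs inside probe identifiers, RIKEN clone names and RefSeq tables for 4650 probes and 4158 genes. No probe-to-gene key was used here, and the brightest probe over the 18 arrays stood for a gene. Named genes were the 15 largest differences in each direction among called probes that did not overlap between regions, and the 5 with the smallest unadjusted p for the change from control, of which 1 is not reported here. Members and lists were chosen with earlier results of these data known.

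The replicate number marks the slide: 3 slides held 6 arrays each, 1 per group, always at the same position, and position cannot be told apart from group. Deviations from group means correlated above 0.1 in 31 of 45 same-number pairs (median 0.226) and in 17 of 90 others (median −0.0966). The number of arrays limits the precision.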

Additional observations from a re-analysis of the deposited data

How the results depend on the processing

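The 3 arrays per group, the 10014 tested probes without a name and bulk tissue limit these results. Without 1 array at a time, the CCH count ran from 1391 to 2180, the control count from 1219 to 1707, the shared calls from 986 to 1243, the called list genes from 86 to 116 and calls of the change from 0 to 1. The CCH count was 1201 when the 6 CCH arrays were fitted alone, for which fewer samples gave the spread. With the deposited series values (6690 probes) the counts were 1090 under CCH, 828 in control, 599 shared and 67 list genes. In that table control cortex 2 had nothing subtracted (median 593.9), unlike the other 17 columns (192.28 to 253.59 subtracted), and the control and shared counts include it. At an adjusted p under 0.01 they were 1110, 997 and 717, and with at least 1 log2 unit required they were 218, 208, 160 and 31. With the slide as a replicate block 2408 probes were called under CCH (2035 of them among the 2091), 1905 in control, 1358 shared, 122 list genes and 0 for the change. The block ended the call of Cnp (adjusted p = 0.057) and added Slit2 (adjusted p = 0.036) and Ebf1 (adjusted p = 0.045), and moved the ribosomal calls in cortex from 2 to 7 and the dentate calls in hippocampus from 3 to 4. The other planned settings kept each count within 1.5 times, and scaling moved the split by direction to 18.9% higher in hippocampus, from 47.9%. The named genes kept direction and call in 747 comparisons. Leaving out control arrays, fitting fewer groups, or changing the filter or threshold leaves the CCH difference itself unchanged, so direction was fixed there. The regions did not overlap in these genes, so leaving out 1 CCH array could not turn their direction either. They were also chosen as large calls, so this count is partly set by the choice. With the series values Tgfb2 differed by 3.87, Chst8 by 2.96, Camkk2 by −2.72 and Dbpht2 by −2.09. The cause was not tested.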
